A study of Mus musculus with 8 samples.

Results

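The genes described here are 10 genes of the focal adhesion: *Ptk2*, which encodes focal adhesion kinase (FAK), its paralog *Ptk2b*, which encodes Pyk2, and the partners *Pxn*, *Bcar1*, *Vcl*, *Tln1*, *Zyx*, *Ilk*, *Src* and *Fyn*. They were taken by name from a single-cell count table of mouse islets that holds 19943 gene names, and all 10 were listed and had counts. Islets were handpicked from wild-type mice given either vehicle or FAKi, which is PF562271, a small molecule inhibitor of FAK kinase activity. Vehicle or FAKi was given by oral gavage, FAKi at 50 mg/kg with 2 doses a day for 3 weeks, to mice aged 6 to 12 weeks at the start. The islets were isolated 10 days after dosing ended, and the islets of 5 mice were pooled into each library. The comparison asks where in the islet the transcripts of the drug target and its partners are found, and whether their levels differ after treatment. There is 1 library per condition, the 8 deposited samples being 4 sequencing lanes of each, so no difference between FAKi and vehicle has a replicate check and no test across mice was possible.

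Focal adhesions are the sites where integrins in the plasma membrane tie the extracellular matrix to the actin cytoskeleton. Talin binds the integrin tail and vinculin ties talin to actin, while FAK is recruited to the site, phosphorylates itself and binds Src family kinases, which then phosphorylate the adaptors paxillin and p130Cas. Signals from this complex act on cell spreading, migration and survival. PF562271 is known to inhibit Pyk2 as well as FAK. It acts on the enzyme, and a transcript level is no measure of kinase activity or of the protein.

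The vehicle library held 3776 cells with 59514118 unique molecular identifiers (UMIs) and the FAKi library 3183 cells with 57836783, where the labels give 8832 and 8437 cells used for sequencing. The median depth per cell was 10101.5 UMIs with vehicle and 13688 with FAKi, and 4 cell barcodes occurred in both. The deposited annotation names 12 classes in 17 clusters, here called by those names, with acinar clusters 1 and 2 kept apart. Levels are given as CPM, the gene's UMIs summed over the cells of a class and library, per 1000000 UMIs of those cells. Levels carry exact Poisson 95% intervals, ratios exact conditional binomial ones and shares of cells exact Clopper-Pearson ones, all of which cover counting error only. The 3′ counts are not scaled to transcript length, so a gene is compared between classes and not with another gene. With pooled counts of a class, fewer expressing cells and less RNA per cell cannot be told apart by a level alone. The shares of cells given below do not separate these either. With cells cut to the same low depth, most have no UMI of a given gene, so the share largely restates the level. At the cells' own depths the share also varies with depth.

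The class names were checked against marker genes. The 6 endothelial markers summed to 12799 CPM in the vehicle and 13944 CPM in the FAKi endothelial class, against at most 104 CPM in any other class. The 4 pericyte or smooth muscle markers summed to 14948 and 9541 CPM in the pericytes, and the 5 macrophage markers to 9218 and 12252 CPM in the macrophages. Beside *Rgs5* at 8872 and 6049 CPM, the pericyte class held *Acta2* at 4824 and 2328 CPM and *Myh11* at 1004 and 858 CPM. It also held *Col3a1* at 2844 and 1675 CPM and *Dcn* at 1232 and 1091 CPM. The name is thus kept for a class that pericytes alone may not make up. The name did not hold in the FAKi T cells, of which only 6 of 28 cells (21.4%) had a UMI of a T-cell marker, against 127 of 168 (75.6%) in vehicle. In those FAKi droplets *Ins2*, which encodes insulin, stood at 72.6% of its β-cell level, against 13.2% in the vehicle T cells. The FAKi B cells were 9 cells, with 4 B-cell markers at 756 CPM against 5585 CPM in vehicle. The vehicle T cells and macrophages also held 4 and 6 cells with *S100a8* or *S100a9*, genes of neutrophils, with sums of 6581 and 5443 CPM. For these reasons the FAKi T and B cells are shown as values, nothing on treatment is read from them, and their ratios appear only where settings are compared. The δ-cell class joins cluster 6, led by *Sst* (213487 and 219821 CPM in vehicle and FAKi), with cluster 8, led by *Ppy* (278292 and 263888 CPM) with *Sst* at 6909 and 7524 CPM, so the name does not hold for cluster 8. The α-cell class joins cluster 5, with *Sst* at 86.3 and 126 CPM, and cluster 9, which held *Sst* at 58406 and 45730 CPM and *Ppy* at 62348 and 24883 CPM beside *Gcg* at 147656 and 193051 CPM. In the β-cell class, cluster 10 held *Gcg* at 10276 and 11956 CPM, *Sst* at 7015 and 8457 CPM and *Ppy* at 15096 and 12054 CPM, and 12 of its 121 vehicle and 18 of its 115 FAKi cells were called doublets.

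*Ptk2*, the gene of the drug target (GRCm38.p6 chromosome 15, 73205102 to 73423820), was highest in the class named pericytes. There it stood at 179 CPM (150 to 211) with vehicle and 189 CPM (139 to 252) with FAKi. Endothelial cells came next with 115 CPM (104 to 126) and 102 CPM (86.3 to 119). In both libraries the intervals of pericytes, endothelial cells and the class below them did not overlap, and below that every class overlapped its neighbour. Fibroblasts followed with 31.4 and 53.0 CPM in vehicle and FAKi, ductal cells with 27.1 and 33.1, α-cells with 19.5 and 18.8, and δ-cells with 17.8 and 16.1. β-cells, with 367 and 369 UMIs of *Ptk2* the best counted of the endocrine classes, had 11.03 CPM (9.93 to 12.2) and 9.61 CPM (8.66 to 10.6). The macrophages had 10.0 and 1.97 CPM (12 UMIs and 1), the T cells 12.2 and 19.2 CPM and the B cells 4.74 and 13.0 CPM. Pericytes exceeded β-cells 16.2-fold (13.2 to 19.8) in vehicle and 19.7-fold (14.2 to 26.7) in FAKi, and endothelial cells exceeded β-cells 10.4-fold (9.06 to 12.0) and 10.6-fold (8.71 to 12.8).

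Part of the low level in endocrine cells belongs to the scale, since the 20 most abundant genes, among them *Ins2*, *Ins1* and other hormone genes, took 64.6% and 65.7% of the β-cell UMIs but 10.9% and 13.5% of the ductal ones. With those 20 genes left out of the totals, the *Ptk2* level of pericytes was 6.66-fold that of β-cells in vehicle and 8.04-fold in FAKi, and that of endothelial cells 4.25-fold and 4.34-fold. Pericytes and endothelial cells stayed above β-cells on both scales. The order of the ductal and endocrine classes did not hold: without the 20 genes, *Ptk2* in vehicle stood at 33.8 in α-cells, 32.0 in δ-cells, 31.2 in β-cells and 30.4 in ductal cells, and in FAKi at 38.3 in ductal cells, 31.5 in α-cells, 29.5 in δ-cells and 28.1 in β-cells.

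In the acinar cells, *Ptk2* was close to the counting limit. Acinar cluster 1 held 3 UMIs in vehicle (8.50 CPM, 1.75 to 24.8) and 3 in FAKi (4.08 CPM, 0.842 to 11.9). Acinar cluster 2 held 4 (3.10 CPM, 0.846 to 7.95) and 3 (1.99 CPM, 0.410 to 5.82). *Ins2* stood at 26.2% and 42.8% of its β-cell level in cluster 1, whose cells are shallow, with a median of 1480 and 1140 UMIs, and a few digestive enzyme genes fill much of cluster 2. All 10 genes together gave between 34 and 47 UMIs in each acinar class and library, too few for a FAKi over vehicle ratio of any single gene. Summed, the 10 genes stood at 96.3 CPM in vehicle and 54.4 CPM in FAKi cluster 1, a ratio of 0.565 (0.349 to 0.920), and at 36.5 and 27.2 CPM in cluster 2, a ratio of 0.746 (0.478 to 1.16). With the β-cell RNA share subtracted, the sum in cluster 1 came to 87.3 and 20.4 CPM. *Ptk2* in cluster 1 then came to 7.60 CPM in vehicle and 0 in FAKi, from 3 UMIs in each. The subtraction sets values below 0 to 0 and carries no interval, so this 0 does not show that the transcript is absent.

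*Ptk2b* (chromosome 14, 66153257 to 66281100) encodes Pyk2, a calcium-responsive kinase that is prominent in blood cells, and its order of classes was another. The highest levels were in B cells, with 63.1 CPM (45.1 to 86.0) in vehicle and 65.2 CPM from 5 UMIs in FAKi, and in macrophages, with 54.2 CPM (41.8 to 69.1) and 57.0 CPM (38.2 to 81.9). The vehicle T cells had 42.6 CPM and the FAKi droplets of that name 20.9 CPM. Ductal cells had 31.7 and 24.4 CPM, α-cells 29.0 and 26.5 CPM, and δ-cells 22.3 and 23.5 CPM. β-cells had 9.22 CPM (8.22 to 10.3) in vehicle and 7.14 CPM (6.32 to 8.04) in FAKi, below the α-, δ- and ductal cells with no overlap of intervals. Without the 20 most abundant genes *Ptk2b* in β-cells stood at 26.1 and 20.8, against 35.6 and 28.2 in ductal cells, the nearest of the 3. By CPM the δ-cell class joins cluster 6, at 39.0 and 43.1, with cluster 8, at 5.93 and 6.12. Its place above the β-cells thus holds for the pooled class and not for cluster 8. The macrophage level was 5.87-fold (4.42 to 7.70) and 7.99-fold (5.25 to 11.7) that of the β-cells, or 2.54-fold and 3.42-fold without the 20 most abundant genes. At the other end, pericytes held 3 UMIs of *Ptk2b* in vehicle (3.91 CPM, 0.807 to 11.4) and 0 in FAKi, and fibroblasts 12 (4.77 CPM) and 3 (5.13 CPM).

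**Figure D1:**
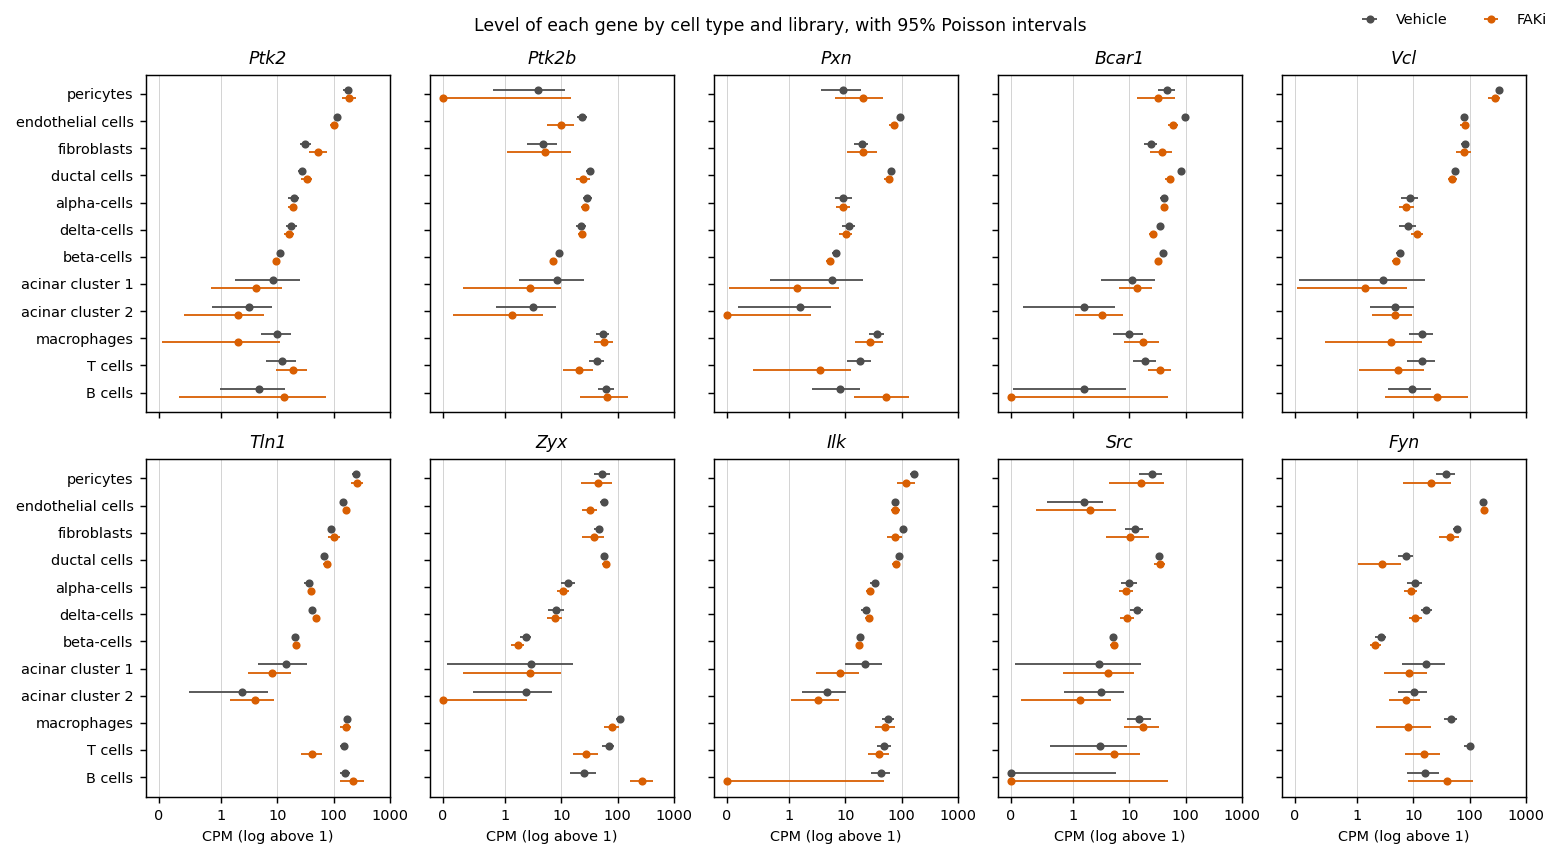
Level of each of the 10 genes in CPM (horizontal, linear below 1 and logarithmic above) in the 12 classes (vertical), with vehicle in grey, FAKi in orange and exact Poisson 95% intervals as lines. *Ptk2* and *Vcl* peak in pericytes, *Ptk2b* in B cells and macrophages, *Fyn* in endothelial cells and *Src* in ductal cells, and vehicle and FAKi points of a class mostly lie close together.

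The share of *Ptk2* in the summed UMIs of *Ptk2* and *Ptk2b* does not depend on the scaling to the total, and it ran over nearly the whole scale. *Ptk2* gave 97.9% (93.9 to 99.6) of the sum in vehicle pericytes and 100% (92.5 to 100) in FAKi pericytes. It gave 83.2% (79.7 to 86.3) and 91.1% (85.7 to 94.9) in endothelial cells and 86.8% and 91.2% in fibroblasts. The endocrine and ductal classes lay in the middle, with 54.5% (50.6 to 58.3) and 57.4% (53.5 to 61.2) in β-cells, 46.0% and 57.6% in ductal cells, 44.4% and 40.6% in δ-cells, and 40.2% and 41.5% in α-cells. In macrophages *Ptk2* gave 15.6% (8.32 to 25.6) and 3.33% (0.0844 to 17.2), and in vehicle B cells 6.98% (1.46 to 19.1). Between the libraries, the intervals of this share overlapped in every one of these classes.

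**Figure D2:**
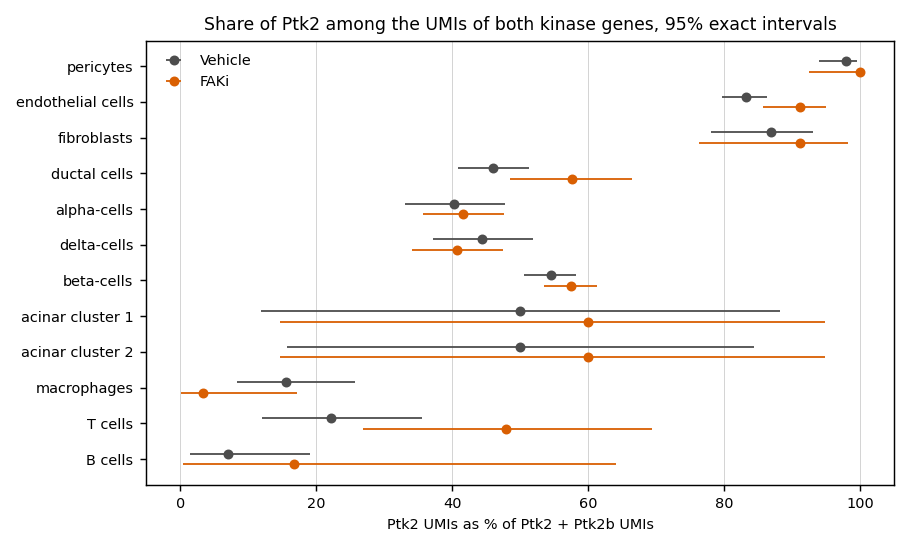
Share of *Ptk2* in the summed UMIs of *Ptk2* and *Ptk2b* (percent, horizontal) by class (vertical), vehicle in grey and FAKi in orange, with exact Clopper-Pearson 95% intervals. The share falls from 97.9% in vehicle pericytes through 54.5% in vehicle β-cells to 15.6% in vehicle macrophages.

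The 2 adaptors that FAK and Src phosphorylate shared their leading classes. *Pxn* (chromosome 5, 115491970 to 115555987), which encodes paxillin, stood at 95.5 CPM (85.9 to 106) in vehicle and 71.9 CPM (58.9 to 86.8) in FAKi endothelial cells and at 65.5 and 59.4 CPM in ductal cells. The macrophages had 35.8 and 27.5 CPM of *Pxn*, pericytes 9.13 and 20.1 CPM (7 and 5 UMIs), and β-cells 6.73 (5.88 to 7.67) and 5.21 CPM (4.51 to 5.99). Endothelial and ductal cells did not overlap for *Pxn* in vehicle, but did in FAKi. *Bcar1* (chromosome 8, 111710474 to 111743849), which encodes p130Cas, stood at 95.7 CPM (86.1 to 106) and 60.5 CPM (48.7 to 74.3) in endothelial cells and at 82.0 and 52.5 CPM in ductal cells. In the endocrine cells *Bcar1* stood at 39.8 CPM (37.7 to 42.0) and 32.0 CPM (30.2 to 33.8) in β-cells, 40.9 and 41.6 CPM in α-cells and 35.6 and 26.0 CPM in δ-cells. Its order depends on the scale: endothelial cells stood 2.40-fold and 1.89-fold above β-cells by CPM, but at 0.979-fold and 0.776-fold of them without the 20 most abundant genes.

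Among the genes that link integrins to actin, *Vcl* and *Tln1* were highest in pericytes, and *Zyx* in vehicle was highest in macrophages. *Vcl* (chromosome 14, 20929383 to 21033676), which encodes vinculin, reached 339 CPM (299 to 383) in vehicle and 278 CPM (216 to 352) in FAKi pericytes, with no overlap with any other class. Fibroblasts had 81.4 and 78.7 CPM, endothelial cells 79.9 and 82.5 CPM, ductal cells 54.6 and 49.3 CPM, and β-cells 5.77 and 4.90 CPM. The pericyte level of *Vcl* was 58.8-fold (48.6 to 71.2) and 56.7-fold (42.4 to 75.1) that of β-cells, or 24.2-fold and 23.2-fold without the 20 most abundant genes. *Tln1* (chromosome 4, 43531513 to 43562583), which encodes talin 1, was found in the blood cells as well as in the vessel wall. It stood at 250 and 262 CPM in pericytes, 174 and 165 CPM in macrophages, 159 and 222 CPM in B cells, 152 CPM in vehicle T cells, and 146 and 164 CPM in endothelial cells. In β-cells *Tln1* had 20.9 (19.4 to 22.5) and 21.3 CPM (19.9 to 22.8), below α-cells with 35.9 and 39.8 CPM and δ-cells with 42.0 and 48.7 CPM. Without the 20 most abundant genes these *Tln1* levels were 59.0 and 62.2 in β-cells, 62.1 and 66.6 in α-cells and 75.7 and 89.5 in δ-cells, so the gap between β- and α-cells was small on that scale. *Zyx* (chromosome 6, 42349511 to 42360213), which encodes zyxin, a protein of actin stress fibres and mature adhesions, was led in vehicle by macrophages with 112 CPM (93.6 to 132), against 78.7 CPM (56.2 to 107) in FAKi. Ductal cells had 56.5 and 62.6 CPM of *Zyx*, endothelial cells 56.3 and 31.9 CPM, and β-cells 2.34 and 1.67 CPM. The 9 FAKi B cells had the highest *Zyx* value, 274 CPM, from 21 UMIs of which 12 were in 1 cell.

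*Ilk* (chromosome 7, 105736590 to 105742925) encodes integrin-linked kinase, a pseudokinase that joins integrins to the parvins. It stood at 167 CPM (139 to 198) and 121 CPM (81.5 to 172) in pericytes, 106 and 75.3 CPM in fibroblasts, 89.0 and 78.3 CPM in ductal cells, 76.9 and 77.2 CPM in endothelial cells and 18.2 and 17.7 CPM in β-cells. In FAKi the intervals of pericytes and ductal cells overlapped, while in vehicle the pericytes stood clear of the next class.

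The Src family kinases *Src* and *Fyn*, which bind autophosphorylated FAK, were found in different classes. *Src* (chromosome 2, 157423906 to 157471838) stood at 33.6 CPM (29.2 to 38.5) in vehicle and 34.5 CPM (27.2 to 43.3) in FAKi ductal cells, the epithelium of the pancreatic ducts. In endothelial cells 6 and 3 UMIs were counted, which gives 1.59 and 1.996 CPM, and the ductal level was 21.2-fold (9.57 to 58.4) and 17.3-fold (5.70 to 85.8) higher. Pericytes had 24.8 and 16.1 CPM of *Src*, δ-cells 13.5 and 9.21 CPM, and β-cells 5.20 and 5.29 CPM. *Fyn* (chromosome 10, 39369743 to 39565381) was the reverse, with 170 CPM (157 to 184) and 180 CPM (159 to 202) in endothelial cells and 7.36 CPM (46 UMIs) and 2.76 CPM (6 UMIs) in ductal cells. Vehicle T cells, in which Fyn is known to act in antigen receptor signalling, had 99.4 CPM, fibroblasts 60.4 and 44.5 CPM, vehicle macrophages 46.7 CPM, and β-cells 2.61 and 2.08 CPM. The endothelial level of *Fyn* was 65.1-fold (52.0 to 82.5) and 86.2-fold (66.9 to 112) that of β-cells, or 26.6-fold and 35.4-fold without the 20 most abundant genes. Of the summed UMIs of *Fyn* and *Src*, *Fyn* gave 99.1% and 98.9% in endothelial cells, 51.3% and 50.9% in α-cells, 33.5% and 28.3% in β-cells, and 18.0% and 7.41% in ductal cells.

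Since cells differ in depth, from a median of 30792.5 UMIs in vehicle β-cells to 1140 in FAKi acinar cluster 1, each cell was thinned to 1000 UMIs and shallower cells were left out. At this depth *Ptk2* had a UMI in 13.9% of 137 vehicle and 14.3% of 63 FAKi pericytes and in 10.9% of 530 and 10.3% of 253 endothelial cells. The share was 1.13% of 1063 and 1.44% of 1320 β-cells, and 1 of 86 and 0 of 114 cells of acinar cluster 2, where a count of 0 allows a share of cells with a UMI of up to 2.63%, taking 3 cells as the limit, or 3.18% by the Clopper-Pearson interval. Without thinning, the shares were 56.2% and 51.6% of pericytes, 49.0% and 39.4% of endothelial cells and 26.9% and 24.4% of β-cells, so at their own depths the classes lie closer together. No class is known to lack *Ptk2*. Before thinning its share was 1.86% and 1.01% in acinar cluster 1 and 3.49% and 2.63% in acinar cluster 2, the latter with a median of 7931 and 7280.5 UMIs.

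At equal depth, *Vcl* was found in 26.3% and 20.6% of pericytes, against 0.470% and 0.758% of β-cells. *Fyn* was found in 16.2% and 17.4% of endothelial cells, against 0.659% and 0.379% of β-cells. *Src* had a UMI in 4.24% and 3.23% of ductal cells and in 0 of 530 and 0 of 253 endothelial cells, which allows a share of cells with a UMI of up to 0.566% and 1.19% by the same limit of 3 cells, or 0.694% and 1.45% by Clopper-Pearson. *Bcar1* was found in 3.67% and 2.73% of β-cells. *Ptk2b* was found in 8.55% of 117 vehicle and 2.13% of 47 FAKi macrophages, the latter 1 cell, where the levels over all UMIs were 54.2 and 57.0 CPM.

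**Figure D3:**
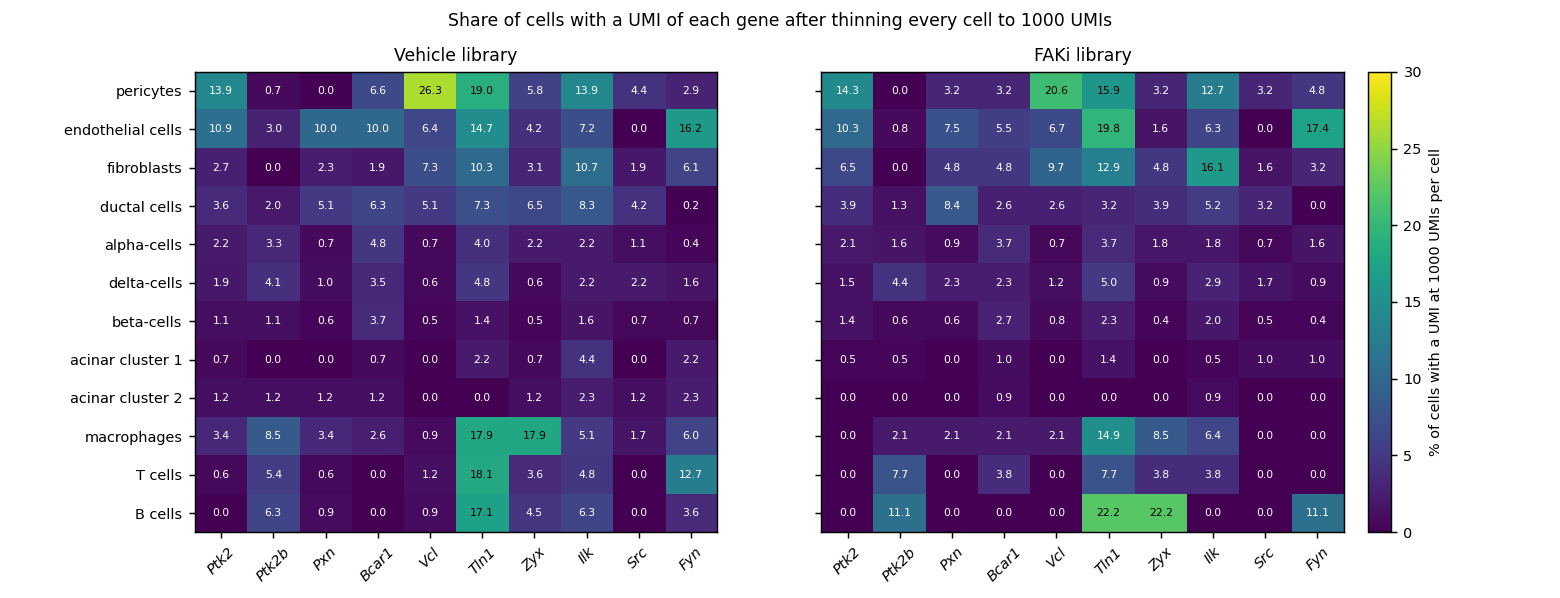
Heat maps of the share of cells with at least 1 UMI after thinning to 1000 UMIs per cell, in percent by colour and as printed, with classes as rows, genes as columns, vehicle on the left and FAKi on the right. Pericytes lead for *Ptk2* (13.9% and 14.3%) and *Vcl* (26.3% and 20.6%), endothelial cells for *Fyn* (16.2% and 17.4%), and β-cells stay below 4% for every gene.

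Levels also differed between clusters of a class. The endothelial class holds cluster 3, with *Esm1* at 3282 and 3841 CPM and *Kdr* at 2848 and 2771 CPM, and cluster 11, with *Esm1* at 25.5 and 291 CPM and *Kdr* at 337 and 429 CPM. Cluster 3 has 371 vehicle and 229 FAKi cells, and cluster 11 has 172 and 40, or 31.7% of the vehicle and 14.9% of the FAKi endothelial cells. *Ptk2b* was far higher in cluster 11, at 58.3 CPM (80 UMIs) and 49.8 CPM (13 UMIs), against 3.32 CPM (8 UMIs) and 1.61 CPM (2 UMIs) in cluster 3. The ratio of the clusters was 17.6 (8.50 to 42.1) in vehicle and 30.9 (6.995 to 282) in FAKi. *Zyx* was higher in cluster 11 too, 3.10-fold (2.33 to 4.16) and 3.70-fold (1.99 to 6.79), while *Fyn* stood there at 0.630-fold (0.525 to 0.752) and 0.401-fold (0.244 to 0.626) of cluster 3. *Ptk2* did not separate the clusters, with 119 and 126 CPM in cluster 11 and 113 and 96.6 CPM in cluster 3.

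In the δ-cell class, *Ptk2b* stood at 39.0 and 43.1 CPM in the *Sst*-rich cluster 6 and at 5.93 and 6.12 CPM in the *Ppy*-rich cluster 8. The ratio was 6.59 (3.73 to 12.5) in vehicle and 7.05 (4.26 to 12.3) in FAKi. *Ptk2* differed less, with 22.6 and 20.4 CPM against 13.1 and 12.2 CPM, a ratio of 1.72 (1.08 to 2.78) and 1.67 (1.07 to 2.62). Over the 10 genes and both libraries the ratio of cluster 6 over cluster 8 ran from 1.26 (0.941 to 1.69) for *Tln1* in vehicle to 7.05 for *Ptk2b* in FAKi. How many of all genes are higher in cluster 6 was not counted. Hormone genes take a large part of each total, and levels on this scale depend on that part. In vehicle, *Sst* took 213487 CPM of cluster 6, and *Ppy* and *Gcg* took 278292 and 57931 CPM of cluster 8. The clusters were drawn on the expression of these cells, so these contrasts describe the clusters and do not test them.

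**Figure D4:**
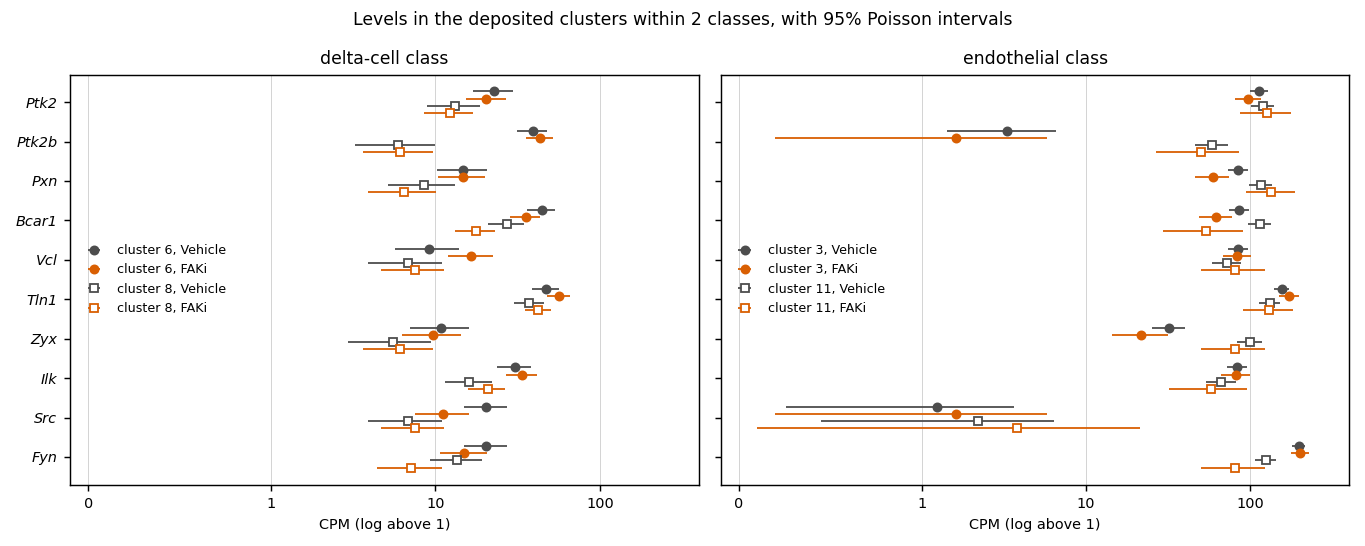
Level of the 10 genes in CPM (horizontal, linear below 1 and logarithmic above) in the deposited clusters of the δ-cell class (clusters 6 and 8) and the endothelial class (clusters 3 and 11), with exact Poisson 95% intervals, vehicle in grey and FAKi in orange. *Ptk2b* is the gene with the widest gap between clusters in both classes, at 39.0 against 5.93 CPM and 58.3 against 3.32 CPM in vehicle.

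The level of the drug target's own transcript differed little between the libraries in the well-counted classes. The FAKi over vehicle ratio of *Ptk2* was 0.872 (0.753 to 1.01) in β-cells, 0.963 (0.712 to 1.31) in α-cells, 0.904 (0.662 to 1.23) in δ-cells, 1.23 (0.917 to 1.62) in ductal cells, 0.885 (0.731 to 1.07) in endothelial cells and 1.06 (0.744 to 1.49) in pericytes. Each of these intervals holds 1. With cells thinned to 1000 UMIs the β-cell ratio was 1.28, from far fewer UMIs. Fibroblasts were the exception, with 31.4 CPM (79 UMIs) in vehicle and 53.0 CPM (31 UMIs) in FAKi, a ratio of 1.69 (1.08 to 2.59). The FAKi fibroblast class, 63 cells against 264, also had more Schwann cell transcripts, the 3 markers summing to 228 CPM against 52.8 CPM, and *Ins2* at 22.4% of its β-cell level against 11.5%, and the part of the Schwann cell transcripts in the *Ptk2* value was not tested. Without the cells rich in *Ins2*, those with at least 1000 of its UMIs, the ratio was 1.67, and with the β-cell RNA share subtracted it was 1.93. Over the settings tried the ratio ranged from 1.28, among cells under 5% mitochondrial counts and then within the fold of 1.5 used for the other genes, to 2.41 with thinning.

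For the other genes, a ratio of at least 1.5 or at most its inverse was counted as past the fold where the class held at least 50 UMIs of the gene over both libraries and 3 in each. In β-cells 6.08% of 12034 genes were past it and in α-cells 7.56% of 9772, and none of the 10 genes was in either class. Each lies within the fold. In β-cells the median of the log2 ratios, taken without a pseudocount, was -0.28 over the 10, against -0.05 over all genes tested. The lower β-cell values included *Ptk2b* at 0.774 (0.655 to 0.914), *Pxn* at 0.774 (0.637 to 0.941) and *Bcar1* at 0.803 (0.742 to 0.869), whose intervals do not reach 1. How many of all genes have such intervals was not counted. *Zyx* was at 0.712 (0.503 to 1.00). In β-cell cluster 0 alone *Pxn*, at 0.638 (0.499 to 0.813), and *Zyx*, at 0.569 (0.349 to 0.915), were past the fold. *Pxn* was at 1.33 (0.850 to 2.12) in cluster 1 and 0.993 in cluster 10. *Zyx* was at 0.560 (0.269 to 1.15) in cluster 1 and 1.95 (0.853 to 4.73) in cluster 10, both from fewer than 50 UMIs. *Ptk2b* was at 0.640 (0.378 to 1.06) in cluster 10, and *Zyx* in the whole class was at 0.428 with CPM averaged over cells. *Tln1* and *Src* both stood at 1.02 and *Ilk* at 0.973 (0.871 to 1.09) in β-cells. In α-cells the 10 ratios ran from 0.820 for *Zyx* to 1.11 for *Tln1*, with intervals that hold 1, and their median log2 ratio was -0.17 against 0.04 over all genes tested. By cluster, *Ptk2b* was at 1.08 (0.797 to 1.46) in α-cell cluster 5 and at 0.595 (0.372 to 0.954), past the fold, in cluster 9.

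In δ-cells 6.50% of 9966 genes were past the fold, and 1 of the 10 was, *Fyn*, which stood at 16.9 CPM (79 UMIs) in vehicle and 10.8 CPM (60 UMIs) in FAKi, a ratio of 0.640 (0.450 to 0.907). With CPM averaged over cells the ratio was 0.733, within the fold. *Bcar1* stood at 0.731 (0.581 to 0.919) and *Vcl* at 1.48 (0.974 to 2.28), both within the fold. By cluster, *Bcar1* was at 0.800 (0.597 to 1.07) in cluster 6 and 0.653 (0.444 to 0.956), past the fold, in cluster 8, *Fyn* was at 0.736 (0.469 to 1.15) in cluster 6 and 0.527 (0.289 to 0.943) in cluster 8, *Src* at 0.548 (0.332 to 0.888) and 1.10 (0.554 to 2.25), and *Vcl* at 1.82 (1.06 to 3.22) and 1.10 (0.554 to 2.25).

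In ductal cells 11.0% of 10356 genes were past the fold and 2 of the 10 were. *Bcar1* stood at 82.0 CPM (512 UMIs) in vehicle and 52.5 CPM (114 UMIs) in FAKi, a ratio of 0.640 (0.518 to 0.786). It came to 0.687 with CPM averaged over cells and 0.691 without cells rich in *Ins2*, both within the fold, and to 0.399 with thinning. *Fyn* stood at 0.375 (0.131 to 0.881), from 46 and 6 UMIs. Without called doublets it was at 0.415 and no longer met the minimum of 50 UMIs. *Ptk2b* stood at 0.770 (0.557 to 1.05) and *Src* at 1.03 (0.778 to 1.34). Transcripts of other cell types differed between the ductal classes too. In vehicle and FAKi *Flt1* was at 13.3 and 0 CPM, *Acta2* at 47.7 and 0, *Prss2* at 576 and 1308, and *Ins2* at 4.17% and 9.07% of its β-cell level. Their part in these ratios was not tested.

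In endothelial cells 12.5% of 8660 genes were past the fold, and 3 of the 9 members tested were, all lower in FAKi: *Ptk2b* at 0.429 (0.230 to 0.747), *Bcar1* at 0.633 (0.497 to 0.798) and *Zyx* at 0.567 (0.406 to 0.779). *Pxn* stood at 0.753 (0.601 to 0.936) within the fold, while *Fyn* at 1.06, *Tln1* at 1.12 and *Ilk* at 1.003 were close to 1 in the class as a whole. Transcripts of other cell types differed in this class too. In vehicle and FAKi *Gcg* was at 787 and 5401 CPM, *Sst* at 991 and 152, *Col3a1* at 30.9 and 1.33, and *Ins2* at 9.30% and 13.7% of its β-cell level. Their part in these ratios was not tested. Because cluster 11, where *Ptk2b* and *Zyx* are high, made up 31.7% of the vehicle and 14.9% of the FAKi class, the ratios were also taken within clusters. *Ptk2b* then stood at 0.485 (0.0502 to 2.43) in cluster 3 and 0.854 (0.436 to 1.54) in cluster 11, and *Zyx* at 0.681 (0.422 to 1.07) and 0.811 (0.486 to 1.29). *Bcar1* stood at 0.729 (0.553 to 0.952) and 0.468 (0.250 to 0.810), below 1 in both. *Fyn* stood at 1.02 (0.871 to 1.19) in cluster 3 and at 0.649 (0.392 to 1.02; 170 and 21 UMIs), past the fold, in cluster 11. With both clusters weighted by their vehicle share, a choice made after seeing the data, *Ptk2b* was at 0.820 and *Zyx* at 0.764, within the fold, and *Bcar1* at 0.616, past it. *Zyx* in the whole class was at 0.707 among cells under 5% mitochondrial counts and at 0.349 with thinning, and *Ptk2b* at 0.246 with thinning. *Bcar1* was thus past the fold in the endothelial and ductal classes and below 1 in β- and δ-cells, at 1.02 (0.829 to 1.251) in α-cells and at 1.58 (0.923 to 2.61) in fibroblasts, from 60 and 22 UMIs. These ratios share the same 2 libraries and are not separate trials of the treatment.

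In macrophages 20.9% of 3882 genes were past the fold, and 1 of the 6 members tested was, *Fyn*, at 46.7 CPM (56 UMIs) in vehicle and 7.87 CPM (4 UMIs) in FAKi, a ratio of 0.169 (0.0444 to 0.456). Without the cells that hold *S100a8* or *S100a9*, which only the vehicle macrophages had, the ratio was 0.165. Without the 9 vehicle and 3 FAKi macrophages rich in *Ins2*, with at least 1000 of its UMIs, it was 0.0879, and the alternatives ran from 0.0589 to 0.260, all past the fold. Other markers differed between the macrophage classes too. The 7 acinar markers summed to 2197 CPM in vehicle and 13804 in FAKi, the 4 α-cell markers to 456 and 2752 CPM and the 2 δ-cell markers to 138 and 3062 CPM. The 3 dendritic cell markers summed to 277 and 210 CPM, the 4 B-cell markers to 77.5 and 15.7 CPM, the 4 pericyte markers to 98.4 and 3.93 CPM and the 4 T-cell markers to 5.002 and 0 CPM, and the part of these in the *Fyn* ratio was not tested. *Ptk2b* stood at 1.05 (0.655 to 1.65), but at 0.582 with CPM averaged over cells and 0.226 with thinning, both past the fold, and *Tln1* at 0.948 (0.727 to 1.23). In fibroblasts 21.1% of 6938 genes were past the fold and 2 of the 8 members tested were, *Ptk2* and *Bcar1*, both higher in FAKi. *Bcar1* was at 1.05 in fibroblasts without the cells rich in *Ins2*. In pericytes 18.4% of 3458 genes were past it and none of the 5 members tested was, with *Vcl* at 0.820 (0.619 to 1.07) and *Ilk* at 0.724 (0.469 to 1.08). Fibroblasts and pericytes were added to this count after their values were seen.

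**Figure D5:**
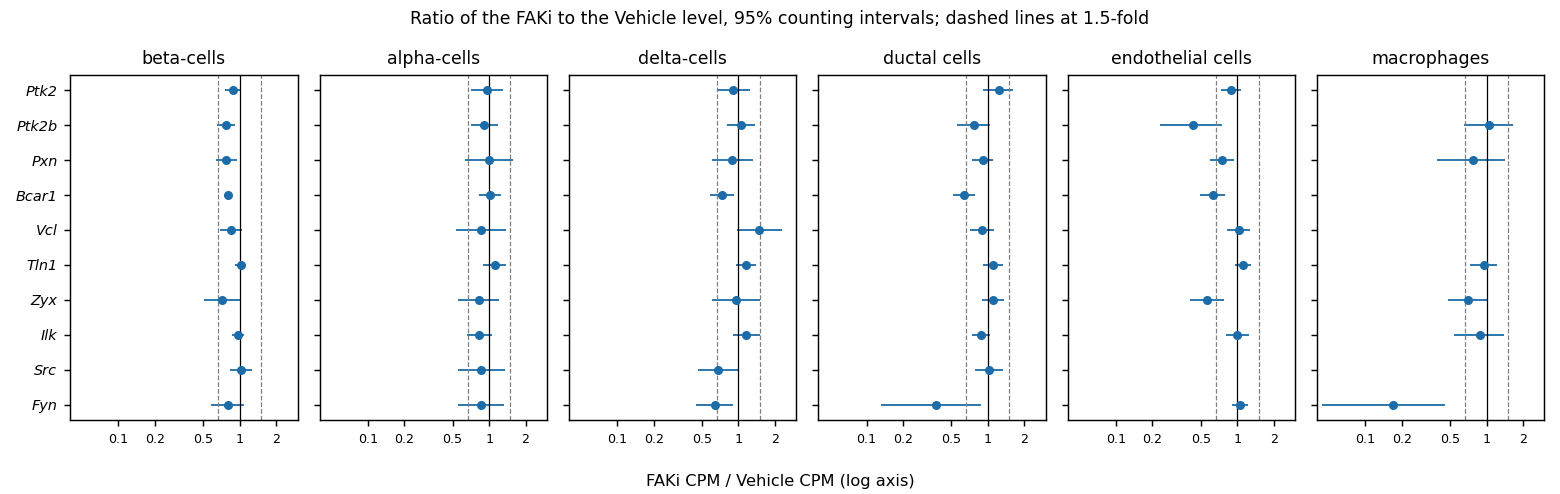
FAKi over vehicle ratio of the CPM (horizontal, logarithmic) of the members (vertical) with enough UMIs in each of 6 classes (panels), with exact conditional binomial 95% intervals, the dashed lines marking a ratio of 1.5 and its inverse. Most points lie between the lines, and those outside include *Bcar1* in endothelial (0.633) and ductal cells (0.640), *Ptk2b* in endothelial cells (0.429) and *Fyn* in macrophages (0.169).

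A further 72 genes of the focal adhesion network were listed, 33 signalling partners and 39 adaptors and actin linkers. Their levels differed most between classes for *Cav1*, which encodes the caveolar coat protein caveolin 1, with 598 and 517 CPM in endothelial cells and 0.391 and 0.156 CPM in β-cells. *Sorbs2*, an adaptor of actin and adhesion proteins, peaked in ductal cells with 595 and 560 CPM, and *Lpp*, a zyxin relative, in pericytes with 413 and 395 CPM. *Fermt2*, which encodes the integrin activator kindlin-2, stood at 343 and 399 CPM in pericytes, and *Tns1*, which encodes tensin 1, at 336 and 294 CPM. Over those of these genes with a UMI in the class, the median log2 ratio of FAKi over vehicle (pseudocount 1 CPM) was -0.04 in β-cells against -0.04 over all genes, 0.06 against 0.04 in α-cells, -0.06 against -0.05 in δ-cells, 0.05 against -0.02 in ductal cells, -0.04 against -0.08 in endothelial cells and -0.10 against -0.17 in macrophages.

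Of the 56 listed genes tested in β-cells, 2 were past the fold, *Tns1* at 0.377 (0.211 to 0.650) and *Kank2*, a talin-binding protein, at 0.499 (0.285 to 0.853), both from under 50 UMIs in each library. In α-cells 4 of 50 were past it, *Nedd9*, a p130Cas relative, at 1.73 (1.17 to 2.62), *Sos1* at 1.505, *Pip5k1c* at 1.503 and *Fhl2* at 0.650. In δ-cells 4 of 52 were past it, with *Fermt1* at 2.48 (1.40 to 4.58), *Nck2* at 0.604, *Arhgef7* at 0.652 and *Pdlim7* at 0.660. In ductal cells 1 of 60 was past it, *Nck2*, an adaptor of tyrosine kinase signalling, at 0.660 (0.503 to 0.854). In endothelial cells 4 of 60 were past it, all lower in FAKi: *Kank1* at 0.427, *Actn1*, which encodes the actin crosslinker α-actinin 1, at 0.476 (0.350 to 0.636), *Tln2* at 0.511 and *Pdlim7* at 0.608. With clusters 3 and 11 weighted by their vehicle share, *Kank1* was at 0.517, still past the fold, and *Actn1* at 0.731, *Pdlim7* at 0.731 and *Tln2* at 1.02 were within it. In that setting *Pip5k1c* in α-cells (1.496) and *Pdlim7* in δ-cells (0.671) were also just within the fold. The weighted *Tln2* value joins opposite directions. *Tln2* was at 0.0924 (0.00223 to 0.575; 21 and 1 UMIs) in endothelial cluster 3 and at 1.42 (0.707 to 2.67; 48 and 13 UMIs) in cluster 11. In macrophages 5 of 32 were past it, all lower, among them *Pak1* at 0.463 (0.275 to 0.744), *Flna*, which encodes filamin A, at 0.483 (0.304 to 0.741), *Asap1* at 0.590 and *Actn1* at 0.644. Pericytes and fibroblasts were added after their values were seen, with medians over the genes tested and no pseudocount. In pericytes 8 of 36 were past the fold, 1 higher and 7 lower in FAKi, with a median log2 ratio of -0.19 against 0.01 over all genes tested. In fibroblasts 10 of 55 were past it, 6 higher and 4 lower, with a median of -0.12 against -0.09. The shares of the list past the fold can be read against the shares of all genes given for each class.

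Over the 24 groups of class and library, the genes whose log2(CPM + 1) was most like that of *Ptk2* among 10719 genes with at least 500 UMIs were *Zcchc14* (Pearson r 0.929, Spearman rho 0.901), *Mprip* (0.929 and 0.954), *Kctd17* (r 0.924), *Snrk* (r 0.923) and *Ankrd50* (r 0.919). Those most like *Ptk2b* were *Dusp5* (r 0.903), *Malt1* (r 0.900), *Otulin* (r 0.888), *Arrdc1* (r 0.888) and *Grk2* (r 0.882). Among the other 9 members *Vcl* was the most like *Ptk2*, with r 0.887 and rank 26, and *Ptk2b* the least, with r -0.222. These are descriptions over groups that share libraries, depth and the scaling to totals, and carry no p. Of the 5 genes listed for *Ptk2*, 1 remained among the first 5 with a pseudocount of 10 CPM and 3 with at least 2000 UMIs, and of those for *Ptk2b* 2 and 3.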

How the data were processed

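Single cells of islets were profiled with the droplet-based 3′ chemistry. The deposited table holds raw UMI counts per gene and cell, made by the authors with Cell Ranger and Seurat 3.1 on mm10 per the labels, and a second table holds the authors' class and cluster of each cell. The authors also deposited each cell's percent of mitochondrial counts, after removing cells of 8% or more. Gene positions are those of GRCm38.p6, the assembly named mm10. UMIs were summed by class and library and given as CPM. The 4 lanes of a library are not replicates, so no p-values are given. Doublets, called with scrublet in scanpy 1.11.5 (68 and 57 cells, 1.80% and 1.79%), were kept in the main values. Thinning to 1000 UMIs used seed 0. Levels and intervals were computed in scipy 1.17.1 with numpy 2.4.6 and pandas 2.3.3 (python 3.11.15). The ratio intervals were tried on simulated Poisson counts, the error they assume, so that trial does not cover spread between cells or mice. Named were all 10 members, the 5 genes most like *Ptk2* and *Ptk2b*, and, of the 72 other genes, up to 4 past the fold in each direction and class and the 5 with the widest range over classes. Members, lists and rules were chosen with earlier results of these data known. Alternatives for scaling, cell weight, doublets, depth, free RNA and minimum counts were computed, and others by deposited cluster or without cells rich in *Ins2*, *S100a8* or *S100a9* were added after seeing the data.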

Additional observations from a re-analysis of the deposited data

How the results depend on the processing

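No paired analysis was possible because there is 1 library per condition and the lane numbers mark sequencing lanes. The *Ptk2* ratio of FAKi over vehicle moved to 1.28 in β-cells with cells thinned to 1000 UMIs and to 0.701 in β-cell cluster 10 alone, both within the fold, and to 0.656 in δ-cells with thinning, past it. In fibroblasts it was past the fold at 1.69 and within it at 1.28 among cells under 5% mitochondrial counts. Of 844 alternative values of the members' ratios, 771 lay inside the main value's counting interval, which is wide where UMIs are few, and 64 differed from the main value by more than 1.5-fold. In 27 a ratio past the fold came within it and in 63 a ratio within it passed it. In 15 of the latter the ratio also crossed 1, 10 of them with thinning, among them *Fyn* in α-cells (0.852 to 4.39) and *Pxn* in δ-cells (0.889 to 2.45), and *Zyx* in β-cells crossed in cluster 10 alone (0.712 to 1.95). Of the ratios past the fold, 5 values crossed 1, all in T cells: *Ptk2b* came to 1.42 with thinning, 1.20 with subtraction of β-cell RNA and 1.13 without cells rich in *Ins2*, and *Zyx* to 1.23 with the subtraction and 1.90 without those cells. The number of members past the fold depended on the settings, and the cause was not tested. In β-cells, 0 became 4 with the lower fold tried, 2 with CPM averaged over cells, 2 in cluster 0 alone and 1 in cluster 10 alone. In α-cells, 0 became 1 in cluster 9 alone. In δ-cells, 1 became 4 with the lower fold tried, 0 with a fold of 2 or at least 200 UMIs, 3 with CPM averaged over cells, and 2 without the 20 most abundant genes, with ratios centred on the median gene, in cluster 6 or 8 alone, or with clusters weighted by vehicle share. In ductal cells, 2 became 3 with the lower fold tried. It became 1 with a fold of 2, at least 200 UMIs, CPM averaged over cells, no called doublets or no cells rich in *Ins2*. In endothelial cells, 3 became 1 with a fold of 2 or clusters weighted by vehicle share, 0 in cluster 3 alone, 2 with CPM averaged over cells, at least 200 UMIs or cluster 11 alone, and 4 with the lower fold tried. In macrophages, 1 became 3 with the lower fold tried, 2 with at least 20 UMIs, 0 with at least 200 UMIs and 4 with CPM averaged over cells. Medians of the 72 other genes moved by less than 0.1 (log2) in all 18 alternatives. Of the alternative values of the members' levels 295 moved and 1365 did not, of the shares of cells 250 and 590, and of the *Ptk2* share of *Ptk2* and *Ptk2b* 18 and 50. Few UMIs of the 10 genes limit the acinar classes, with 34 to 47 in each class and library. Cells of cluster 1 are shallow, while those of cluster 2 had a median of 7931 and 7280.5 UMIs.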
